A study of Mus musculus with 80 samples.

Results

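The CXC chemokine genes of mouse chromosome 5 lie in 2 clusters and at 1 single gene, and the mark H3K27me3 was followed over 9 of them. The 9 genes were taken by name: Cxcl1, Cxcl2, Cxcl3, Cxcl5 and Cxcl15, a neutrophil group; Cxcl9, Cxcl10 and Cxcl11, an interferon-induced group; and Cxcl13. They are 9 of 21632 genes of the annotation for which the same measure could be taken. That measure, called coverage here, is the percent of a gene's span plus 2 kb either side that lies inside H3K27me3 peaks.

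The study profiled H3K27me3 with CUT&RUN, where a nuclease tethered by an antibody releases the marked chromatin for sequencing, in fibroblasts that had been isolated from mouse uterus on magnetic beads. Each of 16 deposited peak lists pools the 3 samples of a group, so a list has no replicate of its own. In the Kdm6b set, 6 lists came from conditional knockout (cKO) females carrying floxed alleles of Kdm6b, the gene for a demethylase that removes H3K27me3, together with a Cre driver, and 6 came from Kdm6b f/f control females with the same floxed alleles. Pgr-Cre follows the progesterone receptor gene and so is not limited to fibroblasts; it gave 5 pairs of lists, from gestation day (GD) 5.5, GD8.5 and GD14.5 at inter-implantation sites (IIS) and from GD14.5 and GD18.5 at implantation sites (IS). Pdgfra-Cre, active in fibroblasts, gave 1 pair, at GD14.5 IS. All 12 groups had been mated with B6 males. A second set of 4 lists came from B6CBAF1/J females: naturally mated females at GD5.5 (IIS), females at GD5.5 whose mate was vasectomized, non-pregnant females given progesterone for 3 days, and GD0.5 after mating with a B6 male. The sets differ in how closely neighbouring peaks were joined, and their values are kept apart.

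CXC chemokines are small secreted proteins that draw leukocytes along a gradient. Cxcl1, Cxcl2, Cxcl3 and Cxcl5 signal through the receptor Cxcr2 on neutrophils and are switched on by inflammatory signals that act through NF-kB; the interferon-induced group signals through Cxcr3 on T cells and NK cells; Cxcl13 draws B cells through Cxcr5. H3K27me3 is laid down by Polycomb repressive complex 2, often in broad domains, and is associated with silent genes. In the pregnant mouse uterus, silencing of T cell-attracting chemokine genes in decidual stromal cells has been tied to this mark, which is the background for asking where it lies at these genes in uterine fibroblasts. A lower coverage may mean fewer marked cells or less mark per cell, and these cannot be told apart in bulk material.

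All positions below are on mm10 (GRCm38). The neutrophil cluster runs along the plus strand in the order Cxcl5 (chr5:90759298-90761625), Cxcl3 (chr5:90786101-90788093), Cxcl15 (chr5:90794534-90803067), Cxcl1 (chr5:90891245-90893121) and Cxcl2 (chr5:90903899-90905938). The platelet chemokine genes Ppbp and Pf4 lie between Cxcl5 and Cxcl3. The interferon cluster holds Cxcl9 (chr5:92321331-92328079) and Cxcl10 (chr5:92346638-92348889), both on the minus strand, and Cxcl11 (chr5:92359544-92363296), which the annotation calls a transcribed pseudogene. Cxcl10 and Cxcl11 lie inside the span of Art3, an ADP-ribosyltransferase gene (chr5:92331799-92414628). Cxcl13 (chr5:95956939-95961068) stands by itself.

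RefSeq held a start-site window, 250 bases before to 50 bases after the start on GRCm38.p6, for 7 of the 9 genes. Those of Cxcl1 (chr5:90890995-90891294, plus strand), Cxcl2 (chr5:90903649-90903948, plus strand), Cxcl3 (chr5:90785851-90786150, plus strand), Cxcl9 (chr5:92328030-92328329, minus strand) and Cxcl10 (chr5:92348840-92349139, minus strand) are shown, because the first 3 lay inside the mark in all or nearly all lists and the other 2 almost never did. Capitals mark GGG and TTTCC with any 2 bases between them, a pattern of NF-kB sites, or GAAA and GAAA with any 2 bases between them, a pattern of interferon response elements, searched on both strands with any overlap counted. The first capitals of Cxcl1 are the match on the opposite strand.
Cxcl1: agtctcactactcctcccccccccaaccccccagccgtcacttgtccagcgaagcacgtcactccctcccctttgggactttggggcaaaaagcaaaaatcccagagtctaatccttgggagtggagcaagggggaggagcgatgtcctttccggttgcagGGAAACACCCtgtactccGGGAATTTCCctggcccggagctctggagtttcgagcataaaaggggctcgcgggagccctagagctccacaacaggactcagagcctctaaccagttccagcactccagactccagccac
Cxcl2: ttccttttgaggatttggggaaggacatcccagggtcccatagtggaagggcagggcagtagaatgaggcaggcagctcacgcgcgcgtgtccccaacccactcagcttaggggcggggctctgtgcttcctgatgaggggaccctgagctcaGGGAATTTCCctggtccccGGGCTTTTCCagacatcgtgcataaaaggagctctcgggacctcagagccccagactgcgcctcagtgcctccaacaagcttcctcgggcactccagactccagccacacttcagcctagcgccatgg
Cxcl3: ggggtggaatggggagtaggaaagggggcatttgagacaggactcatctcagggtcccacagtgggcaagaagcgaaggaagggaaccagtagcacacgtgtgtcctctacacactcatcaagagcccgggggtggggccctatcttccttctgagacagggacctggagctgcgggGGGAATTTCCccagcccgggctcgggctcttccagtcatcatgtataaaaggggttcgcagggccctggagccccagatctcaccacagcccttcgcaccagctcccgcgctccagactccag
Cxcl9: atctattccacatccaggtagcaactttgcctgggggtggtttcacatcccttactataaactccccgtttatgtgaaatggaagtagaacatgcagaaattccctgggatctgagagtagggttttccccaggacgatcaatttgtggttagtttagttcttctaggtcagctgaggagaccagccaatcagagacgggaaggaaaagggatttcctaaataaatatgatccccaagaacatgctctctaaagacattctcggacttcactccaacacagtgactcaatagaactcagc
Cxcl10: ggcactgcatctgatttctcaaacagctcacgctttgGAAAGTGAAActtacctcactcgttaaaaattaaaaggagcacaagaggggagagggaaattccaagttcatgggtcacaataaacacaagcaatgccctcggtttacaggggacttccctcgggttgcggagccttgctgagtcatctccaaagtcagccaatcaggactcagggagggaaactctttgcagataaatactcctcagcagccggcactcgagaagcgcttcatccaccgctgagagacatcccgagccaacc

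The NF-kB pattern occurred in 1.63% of the 27025 windows of the table, among them Cxcl1, Cxcl2 and Cxcl3. GGGAATTTCC was shared by all 3, at -71 to -62 in Cxcl1, -97 to -88 in Cxcl2 and -73 to -64 in Cxcl3, counted from the start. The interferon pattern occurred in 3.49% of windows, and among the 7 only in Cxcl10, as GAAAGTGAAA at -213 to -204. A match is a description of the letters and not evidence of a site in use, and a window without one says only that those letters are not in it. Other forms of these sites were not searched. The Cxcl10 window, for example, held gggaaattcc and ggggacttcc, each a single base away from the NF-kB pattern and so not marked. The windows of Cxcl1, Cxcl2, Cxcl3 and Cxcl10 held 10, 11, 10 and 10 CG pairs, against 4 in Cxcl9 and 3 each in Cxcl13 and Cxcl15 (median 7 over all windows, quartiles 3 and 20).

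The start-site windows of Cxcl2, Cxcl3 and Cxcl13 lay wholly inside peaks in 16 of 16 lists. That of Cxcl1 did in 6 of 6 cKO, 4 of 6 control and 4 of 4 B6CBAF1/J lists, and that of Cxcl15 in 3 of 6, 5 of 6 and 4 of 4. The windows of Cxcl9 and Cxcl10 were wholly inside in 1 cKO list each, and any overlap at all was found in 2 cKO lists for Cxcl9 and 1 for Cxcl10, with none in the control or B6CBAF1/J lists. Cxcl10 had as many CG pairs as Cxcl1 and Cxcl3.

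The Kdm6b set lists held 221350 to 287629 peaks covering 609 to 740 Mb, with a median fold over background of 1.12 to 1.15, and the B6CBAF1/J lists 131900 to 167542 peaks covering 681 to 704 Mb. These are permissive lists: the weakest peak kept in a Kdm6b set list had a −log10 p of 0.340 to 0.349, and 0.0501% to 0.830% of its peaks had a −log10 q of at least 2. Mean coverage over all genes was 22.3% to 25.4% in the 12 lists, and 6877 of the 21632 genes had no coverage in any of the 16 lists. Peak lists do not measure the deletion of Kdm6b, so the genotype labels were not checked here. The labelled cell type was checked at genes that fibroblasts transcribe: Col1a1, Col1a2, Col3a1, Dcn, Lum and Vim, 6 of 7 fibroblast markers, had no coverage in any list, while the seventh, Pdgfra, averaged 23.4% ± 8.20 in cKO and 22.9% ± 9.79 in control lists (SD, n = 6 lists each). Of the 6 epithelial markers, none was free of the mark in all lists, and their mean coverage per list was 90.3% to 94.3% in cKO and 85.8% to 94.0% in control lists. Absence of the mark did not single out fibroblast genes. No coverage in any list was also found for 2 of 7 immune markers (Cd68 and Cd79a) and 1 of 5 smooth muscle markers (Des), and for 0 of 5 endothelial markers.

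By the median member, the neutrophil group was covered more than the interferon-induced group, and Cxcl13 was covered much like the neutrophil median. Single members went against their group: over the 16 lists Cxcl11 had 92.5% to 100% and Cxcl15 had 24.7% to 90.4%. The median member of the neutrophil group was covered at 100% in 15 of 16 lists, the exception being 91.3% in the control list of GD18.5 IS. The median member of the interferon-induced group was covered at 4.62% to 45.7% in cKO lists, 0% to 29.4% in control lists and 0% to 48.6% in B6CBAF1/J lists, so the medians of the 2 groups overlapped in no list. Cxcl13 lay between 92.8% and 100% throughout. Members of a group share neighbouring sequence and sometimes a peak, so these are descriptions of loci and not replicate measurements.

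**Figure D1:**
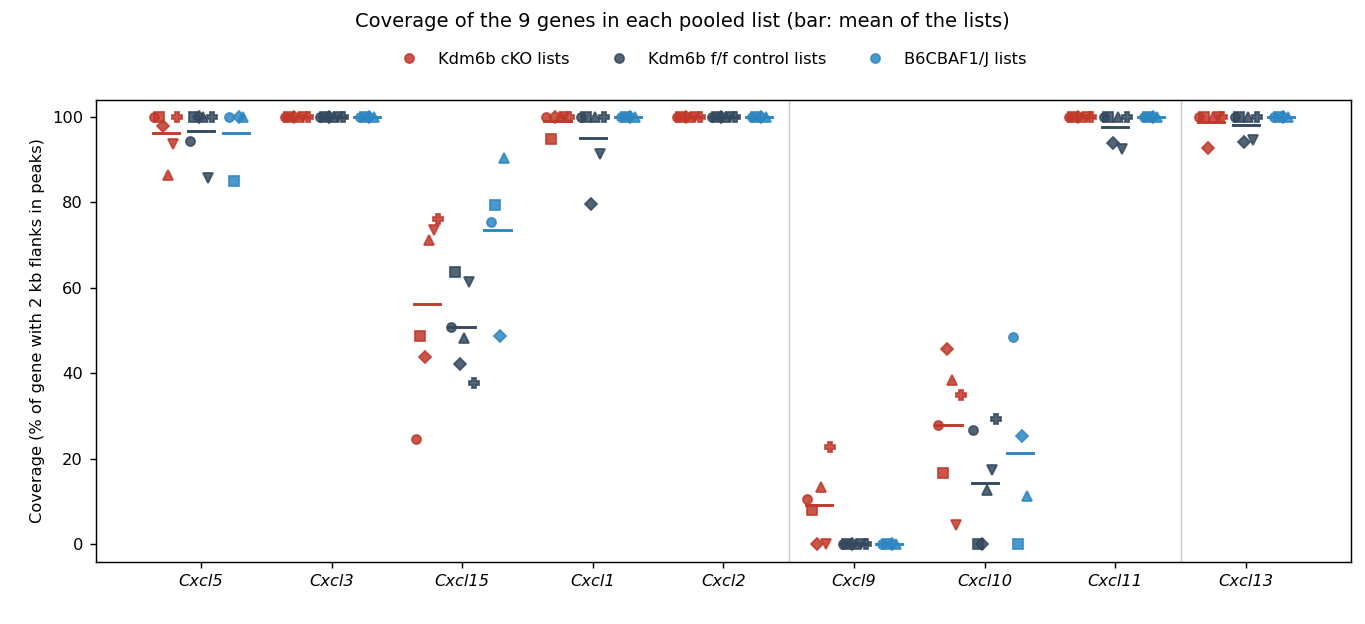
Coverage (y axis, percent of gene span plus 2 kb either side inside peaks) of the 9 chemokine genes (x axis); each point is a list that pools 3 samples, cKO left of control and B6CBAF1/J at the right of each gene, and short bars are means of the lists. Cxcl2 and Cxcl3 sit at 100 in all 16 lists, Cxcl9 is at 0 in all 6 control lists, and Cxcl10 and Cxcl15 spread widely.

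Coverage of at least 90% in all 16 lists was reached by Cxcl2, Cxcl3, Cxcl11 and Cxcl13, 4 of the 9 genes, against 3.48% of all genes. Cxcl2 and Cxcl3 were covered at 100% in all 16 lists, as were 1.57% of all genes. At the other end, Cxcl9 had no coverage in any of the 6 control lists, which is common: 36.2% of all genes had none there. The interferon-induced group was therefore itself split, with Cxcl11 among the fully marked genes and Cxcl9 among those unmarked in the control lists.

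Cxcl1 and Cxcl2, ligands of Cxcr2 that are induced early in inflammation, lay under a single peak in all 16 lists. The peak measured 18.98 to 26.4 kb and had a fold, as the authors' peak caller gave it, of 1.70 to 2.08 in cKO, 1.76 to 2.23 in control and 1.97 to 2.13 in B6CBAF1/J lists. Within each list that fold stood at or above the 99.6th percentile of all peaks. Its right edge was held within a narrow range, 4.60 to 4.86 kb past the end of Cxcl2 in all 16 lists. The left edge moved more, at 1.69 to 4.91 kb before the start of Cxcl1 in cKO lists, -0.457 to 5.05 kb in control lists and 3.73 to 6.92 kb in B6CBAF1/J lists. In the control list of GD18.5 IS the peak began inside Cxcl1, the single list in which its start was left out. A −log10 q of at least 2 was reached by this peak in 3 of 6 cKO, 4 of 6 control and 4 of 4 B6CBAF1/J lists, and no other of the 9 genes had such a peak.

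Coverage of Cxcl1 was 100% in the cKO lists of GD5.5 IIS, GD14.5 IIS, GD14.5 IS, GD18.5 IS and Pdgfra-Cre GD14.5 IS and 94.8% in that of GD8.5 IIS, against 100% in the control lists of GD5.5 IIS, GD8.5 IIS, GD14.5 IS and the Pdgfra-Cre pair, 79.6% in that of GD14.5 IIS and 91.3% in that of GD18.5 IS. The groups overlapped at full coverage, and the 2 low control values and the low cKO value came from different pairs. The difference over 6 pairs was 3.98 ± 3.50 percentage points (cKO minus control, SE), with an adjusted p of 0.4997 by limma with Benjamini-Hochberg adjustment over all genes tested. All 4 B6CBAF1/J lists had Cxcl1 at 100%.

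**Figure D2:**
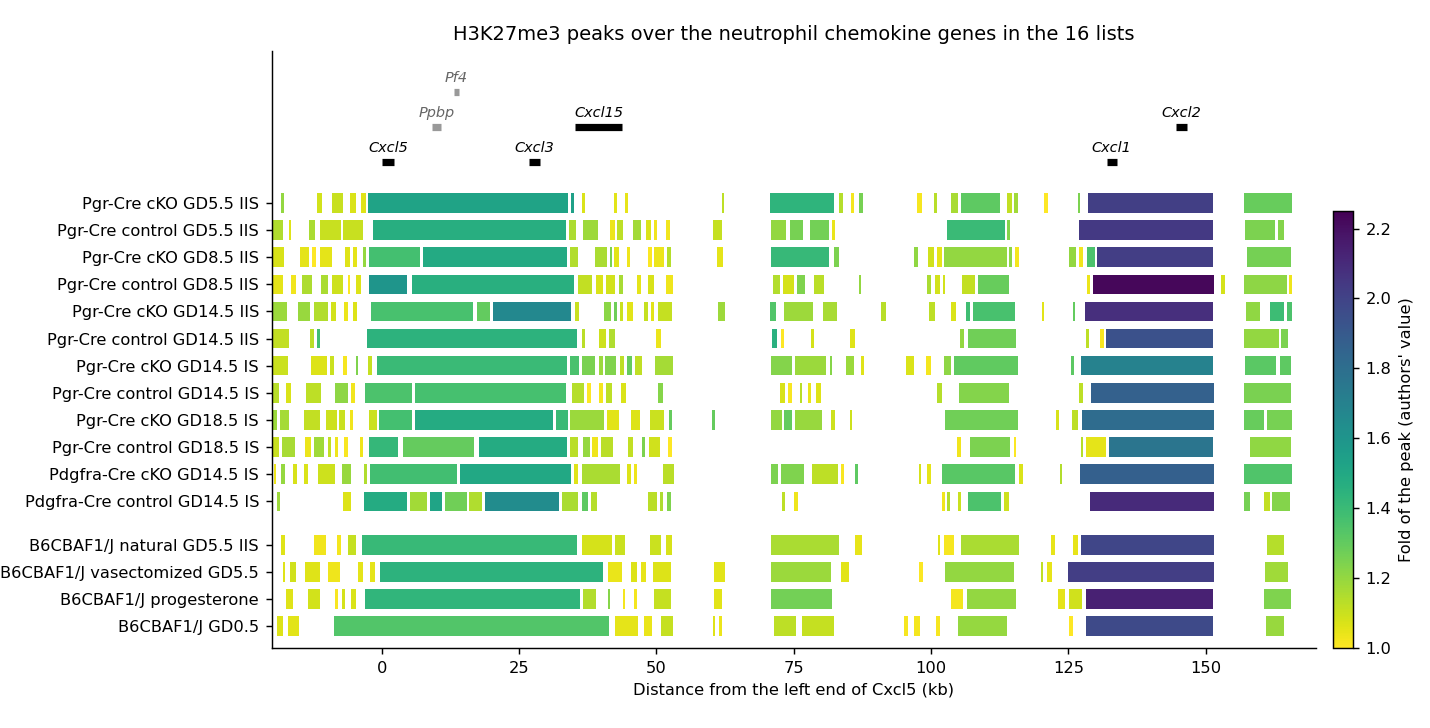
Peaks of the 16 lists over the neutrophil cluster; the x axis is the distance in kb from the left end of Cxcl5, each row is a list, and the shade of a bar is the authors' fold for that peak. A strong block over Cxcl1 and Cxcl2 ends at nearly the same place in every row, a second block covers Cxcl5 to Cxcl3, and the stretch between Cxcl15 and Cxcl1 holds scattered short peaks.

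Cxcl5 and Cxcl3, further ligands of Cxcr2, lay in a second block that also took in Ppbp and Pf4. From Cxcl5 to Cxcl3, 98.0% ± 1.31 of the stretch was inside peaks in cKO lists and 96.9% ± 2.83 in control lists (SD, n = 6 lists each). A single peak spanned both genes in 2 of 6 cKO, 2 of 6 control and 4 of 4 B6CBAF1/J lists. Cxcl3 was fully covered in every list, by a peak of fold 1.40 to 1.67 in cKO, 1.37 to 1.65 in control and 1.34 to 1.45 in B6CBAF1/J lists. Coverage of Cxcl5 was 100%, 100%, 97.8%, 86.4%, 93.6% and 100% in the cKO lists (Pgr-Cre GD5.5, GD8.5 and GD14.5 IIS, GD14.5 and GD18.5 IS, then Pdgfra-Cre), against 94.4%, 100%, 100%, 100%, 85.8% and 100% in the control lists in that order. The lists below 100% were 3 in cKO and 2 in control, in mostly different pairs, and the ranges overlapped, with a difference of -0.379 ± 2.86 points and an adjusted p of 0.978 by limma with Benjamini-Hochberg adjustment. Among B6CBAF1/J lists, Cxcl5 stood at 85.1% after vasectomized mating and at 100% in the other 3.

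Cxcl15, also called lungkine and known as an airway neutrophil chemokine, was the member of the cluster least covered and most variable. In the order above it had 24.7%, 48.8%, 43.8%, 71.1%, 73.7% and 76.0% in cKO lists, against 50.9%, 63.8%, 42.2%, 48.4%, 61.4% and 37.8% in control lists. The cKO lists of the 3 implantation-site pairs were the highest of their genotype and stood above every control list, while the cKO list of GD5.5 IIS was below all controls. Over the 6 pairs the difference was 5.58 ± 9.02 points, with an adjusted p of 0.736 by limma with Benjamini-Hochberg adjustment, and 4 of 6 pairs were higher in cKO. Its peaks were weak, with a fold of 1.05 to 1.25 in cKO and 1.097 to 1.31 in control lists for the peak with the largest overlap of the gene. That peak covered 7.63% to 80.5% of the gene in cKO and 13.0% to 31.9% in control lists. In the B6CBAF1/J set Cxcl15 had 75.3% after natural mating, 79.4% after vasectomized mating and 48.8% with progesterone, against 90.4% at GD0.5. After vasectomized mating and at GD0.5, the peak over Cxcl5 and Cxcl3 also covered 58.7% and 71.2% of Cxcl15 itself. These are single lists and were not tested.

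Cxcl9, a ligand of Cxcr3 induced by interferon gamma, was little covered. Its coverage was 10.7%, 8.16%, 0%, 13.5%, 0% and 22.8% in cKO lists and 0% in all 6 control lists and all 4 B6CBAF1/J lists. The 4 cKO lists above 0 had peaks on the gene of 0.691 to 1.79 kb with a fold of 1.02 to 1.36. Over the gene with its 2 kb flanks, Cxcl9 was too little covered to enter the test, which required a mean of 5% over the 12 lists. Without that filter its difference was 9.20 ± 3.32 points, with an adjusted p of 0.156 by limma with Benjamini-Hochberg adjustment. In the window of 2 kb around its start Cxcl9 was tested. There it had 25.7%, 21.9%, 0%, 36.2%, 0% and 61.4% in cKO lists, and 0% in all 6 control lists. The difference was 24.2 ± 9.10 points, with an adjusted p of 0.302 by limma with Benjamini-Hochberg adjustment. When all lists were reduced to their strongest peaks at an equal covered length of 487 Mb, the cKO list of GD5.5 IIS kept its 10.7% and every other list stood at 0%.

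Cxcl10, the other interferon-induced Cxcr3 ligand with a minus-strand start, was partly covered. It had 27.99%, 16.6%, 45.7%, 38.4%, 4.62% and 35.04% in cKO lists, against 26.9%, 0%, 0%, 12.8%, 17.5% and 29.4% in control lists. The cKO list was the higher in 5 of 6 pairs, the exception being GD18.5 IS, and the ranges overlapped. The difference of 13.6 ± 7.75 points had an adjusted p of 0.292 by limma with Benjamini-Hochberg adjustment. In the B6CBAF1/J set the values were 48.6% after natural mating, 0% after vasectomized mating and 25.5% with progesterone, against 11.4% at GD0.5. A peak touched the gene itself in 4 of 6 cKO, 2 of 6 control and 2 of 4 B6CBAF1/J lists; the rest of the coverage lay in the flanks.

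The Cxcl10 result moved with the width of the flanks. With 5 kb either side, coverage was 43.5%, 33.0%, 45.2%, 47.4%, 21.8% and 42.4% in cKO lists, against 23.4%, 0%, 0%, 11.6%, 12.8% and 23.0% in control lists, higher in cKO in 6 of 6 pairs. It then rose by 27.1 ± 4.89 points in cKO lists, with an adjusted p of 0.0193 by limma with Benjamini-Hochberg adjustment, where 8.52% of all genes tested rose. At equal covered length with the same 5 kb flanks the difference was 21.5 ± 6.58 points and the adjusted p was 0.104 by limma with Benjamini-Hochberg adjustment.

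**Figure D3:**
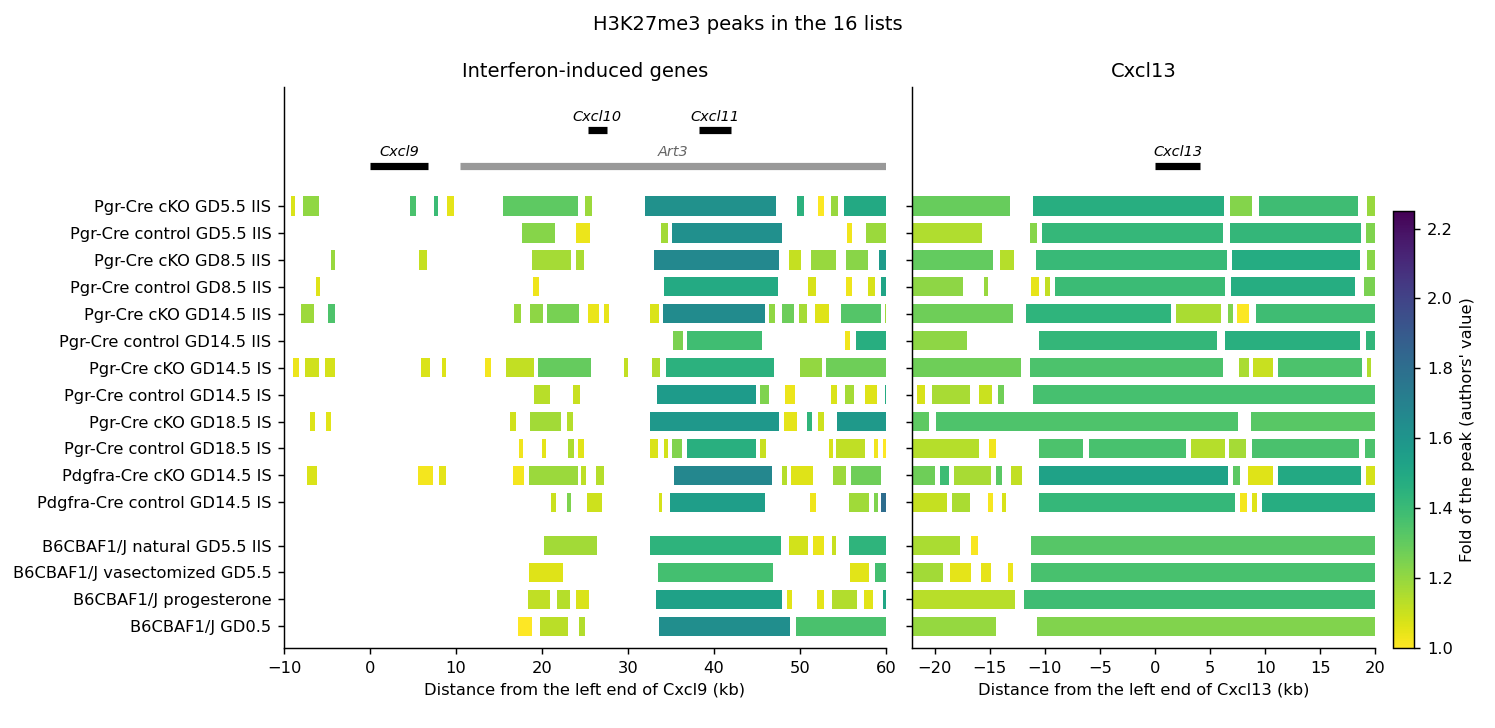
Peaks of the 16 lists over the interferon cluster (left panel) and Cxcl13 (right panel); the x axes are distances in kb from the left end of Cxcl9 and of Cxcl13, each row is a list, and the shade of a bar is the authors' fold for that peak. Every row has a block over Cxcl11 and 1 or more peaks over Cxcl13, Cxcl9 is bare or nearly so, and peaks fill more of the stretch between Cxcl9 and Cxcl10 in the cKO row of each pair.

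Cxcl11, annotated as a transcribed pseudogene, sat under a domain of its own. It was covered at 100% in all 6 cKO and all 4 B6CBAF1/J lists and in 4 control lists, with 93.8% in the control list of GD14.5 IIS and 92.5% in that of GD18.5 IS. The difference was 2.285 ± 1.42 points, with an adjusted p of 0.334 by limma with Benjamini-Hochberg adjustment. Its peak measured 11.4 to 15.3 kb in cKO lists and 8.11 to 13.2 kb in control lists, and began 4.42 to 7.77 kb past the end of Cxcl10 in cKO and 5.84 to 9.35 kb past it in control lists. The domain thus stopped short of Cxcl10 in all 12 lists, and the ranges of its length overlapped.

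Cxcl13 was marked in every list, in most of them by a single domain over the whole gene. Its coverage was 100% in 5 cKO lists and 92.8% in that of GD14.5 IIS, against 100% in 4 control lists, 94.1% in that of GD14.5 IIS and 94.5% in that of GD18.5 IS. The groups overlapped, with a difference of 0.693 ± 1.02 points and an adjusted p of 0.705 by limma with Benjamini-Hochberg adjustment. The peak on the gene measured 4.09 to 27.4 kb in cKO, 8.85 to 36.3 kb in control and 33.9 to 45.3 kb in B6CBAF1/J lists, with a fold of 1.16 to 1.53, 1.36 to 1.42 and 1.24 to 1.39. The shortest, in the cKO list of GD14.5 IIS, covered 53.7% of the gene at a fold of 1.16, and that in the control list of GD18.5 IS covered 68.3%. At equal covered length, Cxcl13 had 42.5% in cKO and 94.1% in control at GD14.5 IIS. At GD18.5 IS it then had 100% in cKO and 59.3% in control. The 3 nearest protein-coding genes on either side, Pramel50, Gm7982, E330014E10Rik, Cnot6l, Gm52799 and Mrpl1, had no coverage in any of the 16 lists. The pseudogene Gm7993 (chr5:95974042-95975823) lay inside the peak of Cxcl13 in the control list of GD14.5 IS and in all 4 B6CBAF1/J lists.

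Of the 8 chemokine genes tested, none passed limma with Benjamini-Hochberg adjustment at 0.05, and none had an unadjusted p under 0.05. Across all 10206 genes tested, 7.99% rose and 6.45% fell in cKO lists, and at equal covered length 3.03% rose and 4.19% fell. Cxcl2 and Cxcl3 could not differ, since both were at 100% everywhere, and Cxcl1, Cxcl5, Cxcl11 and Cxcl13 had little room above their control values. Equal coverage does not show equal amounts of mark: coverage records where peaks were called and not their height.

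Taken a pair at a time, none of the 9 genes differed by 50 points or more, a size reached in either direction by 0.324% of all genes at GD5.5 IIS, 0.804% at GD8.5 IIS, 1.20% at GD14.5 IIS, 1.18% at GD14.5 IS, 0.818% at GD18.5 IS and 0.370% in the Pdgfra-Cre pair. The largest member difference was 45.7 points, for Cxcl10 at GD14.5 IIS. In the B6CBAF1/J set, none differed by that much from GD0.5, where 0.545% of all genes did after natural mating, 0.545% after vasectomized mating and 1.06% with progesterone. These 3 contrasts share the GD0.5 list. The largest was Cxcl15 with progesterone, at -41.6 points, followed by Cxcl10 after natural mating, at 37.3 points. Across gestation in the control lists of the Pgr-Cre set, Cxcl15 had 50.9%, 63.8% and 42.2% at GD5.5, GD8.5 and GD14.5 IIS, and 48.4% and 61.4% at GD14.5 and GD18.5 IS; the order of days was not tested, with 1 list each.

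In the gaps between Cxcl9 and Cxcl10 and between Cxcl15 and Cxcl1, a larger share of the bases lay inside the deposited peaks in the cKO list of every pair. The lists also differed in total length. In the same order of pairs, cKO lists covered 692, 705, 685, 740, 732 and 732 Mb, against 666, 680, 731, 703, 714 and 609 Mb in control lists. The cKO list was thus the longer in every pair but GD14.5 IIS. Of the 18.6 kb between Cxcl9 and Cxcl10, 56.0%, 29.7%, 31.9%, 56.2%, 26.99% and 47.2% lay inside peaks in cKO lists, against 28.1%, 3.75%, 0%, 14.1%, 12.6% and 6.41% in control lists. Every cKO list exceeded its control, by 30.5 ± 10.3 points (SD over 6 pairs), although the lowest cKO value lay just below the highest control value. These peaks were weak, with a fold of at most 1.40 and a −log10 q of at most 0.163. At equal covered length the difference was 19.4 ± 15.1 points, higher in cKO in 4 of 6 pairs and 0% in both lists of the other 2. In the B6CBAF1/J set the same stretch had 27.3% after natural mating, 21.3% after vasectomized mating and 29.8% with progesterone, against 30.4% at GD0.5.

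Over the whole interferon cluster, 42.8% ± 6.23 lay inside peaks in cKO lists and 25.8% ± 5.12 in control lists (SD, n = 6 lists each), a difference of 16.99 ± 4.67 points with 6 of 6 pairs higher and 11.0 ± 6.11 points at equal covered length. Over the neutrophil cluster the shares were 60.9% ± 3.15 in cKO and 50.9% ± 4.70 in control lists, 9.99 ± 6.66 points apart with 5 of 6 pairs higher. Most of that lay in the 84.2 kb between Cxcl15 and Cxcl1, where 37.5% ± 3.44 in cKO and 21.1% ± 6.94 in control lists was inside peaks, 16.4 ± 8.35 points apart with 6 of 6 pairs higher. The pair of GD5.5 IIS stood apart there, at 33.6% in cKO and 33.4% in control, while the other 5 pairs differed by 16.0 to 22.1 points. At equal covered length that stretch differed by 13.5 ± 10.2 points, with 5 of 6 pairs higher. The difference was then -0.478 points at GD5.5 IIS and 1.68 points at GD14.5 IIS. For the whole neutrophil cluster it was 9.15 ± 7.22 points at equal covered length, with 5 of 6 pairs higher. These stretches were chosen after the values were seen and were not tested.

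**Figure D4:**
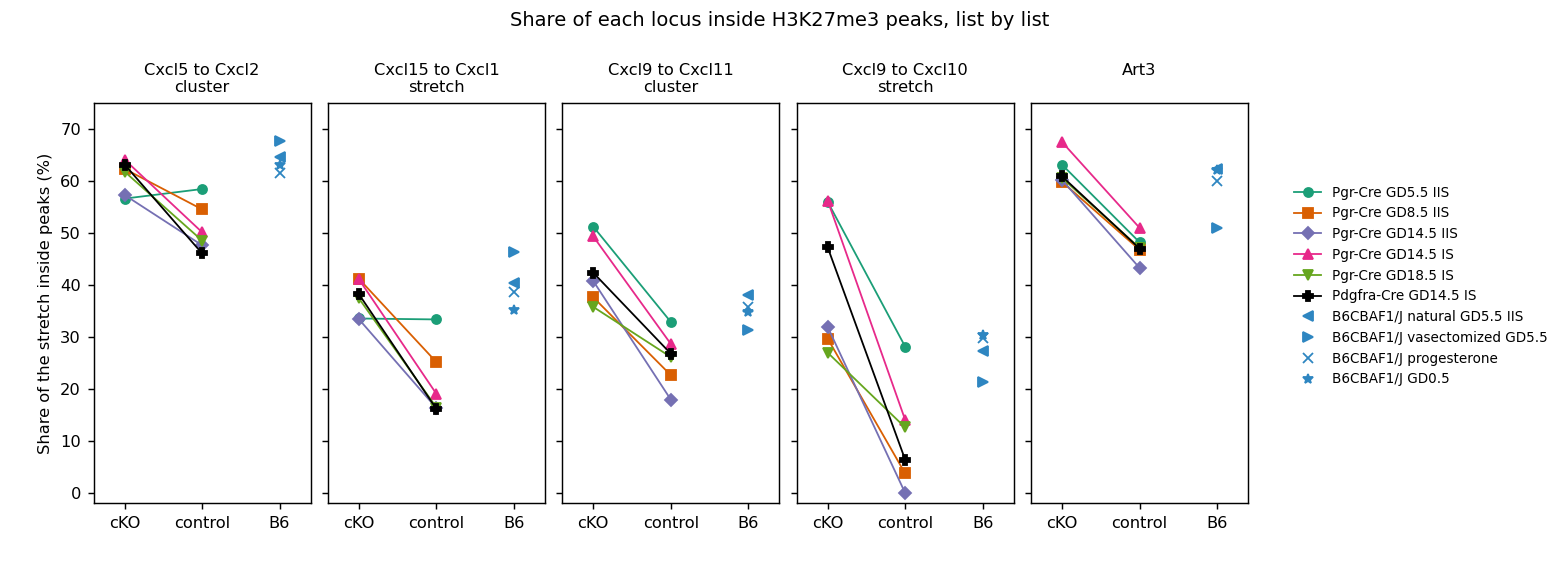
Percent of each stretch, and of Art3 with its flanks, inside peaks (y axis), with cKO left of control and the B6CBAF1/J lists at the right; lines join the 2 lists of a pair. The cKO end is the higher in 6 of 6 pairs for the interferon cluster, both gaps and Art3. For the neutrophil cluster it is the higher in 5 of 6. The interferon cluster, the gap inside it and Art3 overlap and share peaks, and the other gap lies in the neutrophil cluster.

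Art3, whose span holds Cxcl10 and Cxcl11, passed the test. Its coverage was 63.1%, 59.8%, 60.2%, 67.5%, 60.6% and 60.9% in cKO lists, against 48.2%, 46.8%, 43.3%, 51.0%, 47.1% and 47.01% in control lists. Art3 rose by 14.8 ± 0.768 points (SE) in cKO lists, with an adjusted p of 0.00264 by limma with Benjamini-Hochberg adjustment, where 7.99% of all genes tested rose. At equal covered length the rise was 14.1 ± 1.47 points with an adjusted p of 0.0103 by limma with Benjamini-Hochberg adjustment, where 3.03% of all genes tested rose. The part of Art3 up to 2 kb past Cxcl11 and the part beyond it were each higher in cKO in 6 of 6 pairs. The differences were 19.8 ± 6.80 and 12.01 ± 2.30 points (SD), so that of Art3 was not limited to the part holding Cxcl10 and Cxcl11. That part lies inside the interferon cluster. It takes in Cxcl10 with its 5 kb flanks and most of the gap that ends at Cxcl10. The results for Art3, the cluster, that gap and Cxcl10 therefore share peaks and are not separate findings. With peaks restricted to a p of at most 0.05, Art3 differed by 5.94 ± 3.32 points and no longer passed (adjusted p of 0.485 by limma with Benjamini-Hochberg adjustment). In the B6CBAF1/J set Art3 had 62.4% after natural mating, 51.0% after vasectomized mating and 59.9% with progesterone, against 62.04% at GD0.5.

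The genes around the clusters were marked unevenly. On the Cxcl5 side of the neutrophil cluster the nearest protein-coding genes carried the mark: Rassf6 had 70.2% ± 5.51 in cKO and 71.1% ± 6.49 in control lists, Albfm1 had 63.3% ± 10.1 in cKO and 51.7% ± 14.2 in control lists, and Afm had 59.3% ± 7.39 in cKO and 63.5% ± 6.36 in control lists. Albfm1 did not pass (adjusted p of 0.0781 by limma with Benjamini-Hochberg adjustment), but did at equal covered length (17.1 ± 3.51 points, adjusted p of 0.0478 by limma with Benjamini-Hochberg adjustment), where 3.03% of all genes tested rose. Mthfd2l, next to Cxcl2, had no coverage in any list, and neither did Sdad1 and Nup54, on the 2 sides of the interferon cluster. Ereg and Epgn, growth factor genes beyond Mthfd2l, were marked again, with Ereg at 83.8% ± 2.71 in cKO and 84.98% ± 3.79 in control lists. Around the interferon cluster, Fam47e had 63.1% ± 5.14 in cKO and 64.2% ± 8.05 in control lists, Ppef2 had 42.3% ± 10.46 in cKO and 44.2% ± 19.4 in control lists, and Naaa had 7.63% ± 4.14 in cKO and 4.98% ± 4.24 in control lists. Scarb2 had 1.07% ± 1.21 in cKO and 0.122% ± 0.167 in control lists. The platelet chemokine genes inside the first block were covered like their neighbours, Ppbp at 99.3% ± 1.80 in cKO and 97.5% ± 6.21 in control lists and Pf4 at 98.4% ± 3.96 in cKO and 97.4% ± 6.46 in control lists (SD, n = 6 lists each).

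Of the CXC ligand genes outside the 9, 5 of 6 were tested and none passed. Cxcl12, a ligand that fibroblasts make constitutively, was little marked, at 6.03% ± 5.80 in cKO and 5.96% ± 5.78 in control lists. Cxcl14 had 36.2% ± 13.1 in cKO and 38.2% ± 5.19 in control lists, Cxcl16 had 11.2% ± 5.45 in cKO and 11.6% ± 7.26 in control lists, and Cxcl17 had 0% throughout. The median difference of the 5 was 0.0762 points, beside 0 over all genes tested.

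Among the 8 receptor genes, 7 were tested and 1 rose, where 7.99% of all genes tested rose. Cxcr1, a receptor of neutrophils, had 87.3% ± 14.8 in cKO and 58.8% ± 13.4 in control lists, a rise of 28.5 ± 4.93 points (SE) with 6 of 6 pairs higher and an adjusted p of 0.0215 by limma with Benjamini-Hochberg adjustment. At equal covered length it differed by 16.8 ± 7.59 points and did not pass (adjusted p of 0.235 by limma with Benjamini-Hochberg adjustment). Cxcr2, the receptor of the neutrophil group, had 97.1% ± 2.32 in cKO and 85.6% ± 10.6 in control lists, Cxcr3, that of the interferon-induced group, averaged 68.3% in cKO and 75.2% in control lists (56.5% to 100% over the 16 lists), and Cxcr5, that of Cxcl13, had 22.5% ± 12.7 in cKO and 11.9% ± 6.14 in control lists, none of which passed. Cxcr4 had 98.9% ± 1.79 in cKO and 98.0% ± 2.95 in control lists, Ackr1 had 79.1% ± 10.4 in cKO and 71.99% ± 13.4 in control lists, Ackr3 had 9.87% ± 5.78 in cKO and 12.5% ± 5.02 in control lists, and Cxcr6 had 0% throughout. The median difference of the 7 was 7.16 points, beside 0 over all genes tested.

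Among the genes of the inducing signals, Rela, Nfkbia, Irf1, Tlr4 and Myd88, which act in NF-kB, interferon and Toll-like receptor signalling, had no coverage in any list. Tnf, the gene of a cytokine that induces these chemokines, was covered at 100% in all 16 lists. Of the 5 tested none passed: Il1b had 86.0% ± 5.97 in cKO and 79.8% ± 9.47 in control lists and Ifng had 14.3% ± 15.3 in cKO and 17.7% ± 12.9 in control lists.

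Markers of other cells of the uterus moved with genotype in part. Of the immune markers, 4 of 7 were tested and none passed, with a list mean of 44.96% to 48.9% in cKO and 46.5% to 50.8% in control lists. Cdh1, an epithelial cadherin, had 87.8% ± 3.48 in cKO and 77.3% ± 4.49 in control lists and rose, with an adjusted p of 0.00415 by limma with Benjamini-Hochberg adjustment, as the 1 of 6 epithelial markers to pass, where 7.99% of all genes tested rose. With lists at equal covered length, Cdh1 differed by 11.7 ± 2.82 points and did not pass (adjusted p of 0.0659 by limma with Benjamini-Hochberg adjustment). Tek, an endothelial receptor, had 10.1% ± 4.72 in cKO and 1.26% ± 1.49 in control lists and rose, with an adjusted p of 0.0161 by limma with Benjamini-Hochberg adjustment, as the 1 of 4 endothelial markers tested to pass, and fell under the filter on mean coverage at equal covered length; the list mean of the 5 endothelial markers was 10.7% to 20.6% in cKO and 6.51% to 11.9% in control lists. Of the smooth muscle markers, 3 of 5 were tested and none passed, with a median difference of -4.21 points: Actg2 had 89.97% ± 5.602 in cKO and 96.8% ± 1.78 in control lists, Cnn1 had 48.7% ± 2.80 in cKO and 52.1% ± 5.17 in control lists, and Acta2 had 35.98% ± 20.7 in cKO and 40.2% ± 13.9 in control lists. The part of other cells in the differences at Cxcl10, Art3 and the intervals was not tested.

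Over the 12 lists of the Kdm6b set, the genes most like each group in mean coverage were found by Pearson's r among 9827 candidates (9838 for Cxcl13) over 1 Mb away. For the neutrophil group these were Klk1 (r of 0.894), Gm51464 (r of 0.823) and Olfr282 (r of 0.814). For the interferon-induced group they were Coro2b (r of 0.907), Cibar2 (r of 0.894) and Zfp94 (r of 0.865), and for Cxcl13 they were Taar9, Ifna1 and Acox2 (r of 0.819 to 0.831). The best of so many candidates over 12 lists that share a genotype and a covered length has a high r by selection.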

How the data were processed

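H3K27me3 CUT&RUN was deposited as 16 broad peak lists, each pooling 3 samples, from 48 of 80 samples; 32 samples, 20 of them inputs, are in no list and were not used here. Per the labels' descriptions, reads were mapped with STAR 2.7.5c and handled with samtools 1.10, bedtools 2.29.1 and bedGraphToBigWig 2.8, and the authors called peaks with macs2 2.2.7.1; the submitters' processing notes also name Picard and mm10. How reads shared by near-identical chemokine genes were placed is not stated in the sources at hand. The deposited fold is the authors' ratio over background for each peak, and the deposited −log10 p and −log10 q are the authors' peak caller's. No file gives read counts, so depth is unknown and no counting interval is given. Peaks lay at least 405 bp apart in the Kdm6b set and 605 bp in the B6CBAF1/J set. Per the peak names inside the files, the 2 Pgr-Cre GD14.5 IS lists come from another version of the peak calling than the other 10 Kdm6b lists.

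Percent coverage per gene was computed here in Python 3.11.15 (numpy 2.4.6, pandas 2.3.3, matplotlib 3.10.9). limma 3.58.1 (R 4.3.3) tested the 6 paired differences, with no further covariates, over every gene whose coverage averaged 5% or more in the 12 lists, with Benjamini-Hochberg adjustment at 0.05; the procedure was tested on simulated data. Independence of the 6 pairs is assumed; a p-value measures the spread between pairs, which also differ in day, site and driver. Single pairs and the B6CBAF1/J contrasts have 1 list a side, so a size of 50 points was used and no test. Named by rule were all 9 members, the nearest protein-coding genes and those inside each cluster, genes of the ligand and receptor lists, and the 3 genes with the highest Pearson r per group. Alternatives were stricter peaks (−log10 q of at least 2, p of at most 0.05), lists cut to equal covered length (80% of the shortest list of a set, 487 Mb in the Kdm6b set and 544 Mb in the other), no flanks, 5 kb flanks, a window of 2 kb around the start, an unpaired fit, median-centred differences, no filter, 25 points, and each pair left out. The shares of clusters and gaps were added after seeing the data. The members and lists were chosen with earlier results of these data known. One gene of the list of inducing signals is not reported here.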

Additional observations from a re-analysis of the deposited data

Results flagged for a closer look

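Among 15 combinations of a gene and a group of lists that were checked for a list far from the others, 3 had one. In all 3 the other lists stood at the upper limit of 100%, where any lower list is flagged. The count therefore cannot be set against a chance rate. Cxcl1 had 94.8% in the cKO list of Pgr-Cre GD8.5 IIS and 100% in the other 5 cKO lists. Cxcl5 had 85.1% in the B6CBAF1/J list after vasectomized mating and 100% in the other 3. Cxcl13 had 92.8% in the cKO list of Pgr-Cre GD14.5 IIS and 100% in the other 5 cKO lists.

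The 9 genes were checked on 2 splits of the pairs, by stage and by site, for differences of opposite sign. Cxcl15 by stage was the only one found. In the 4 pairs of GD14.5 and GD18.5, cKO exceeded control by 1.59 to 38.2 points (mean 18.7), and in the 2 pairs of GD5.5 and GD8.5 the cKO minus control difference was -26.2 to -14.98 points (mean -20.6). The later pairs exceeded the earlier by 39.3 points, and this difference was not tested. At equal covered length the later pairs ran from -19.4 to 63.2 points and the earlier from -14.4 to -12.9, so the later pairs no longer all went one way. Both earlier pairs are from inter-implantation sites and 3 of the 4 later pairs from implantation sites.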

How the results depend on the processing

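No chemokine gene was called with deposited peaks and 2 kb flanks, and 1 (Cxcl10) was with 5 kb flanks; leaving out a pair called 0 to 0. The count of all genes called, 1473, was 5 with peaks of −log10 q of at least 2, 49 with p of at most 0.05, 641 at equal covered length, 13 in the start window, 891 with 5 kb flanks at equal covered length (chosen after seeing the data) and 593 to 1122 leaving out each pair in turn, where the omission of any Pgr-Cre pair, but not of the Pdgfra-Cre pair, moved it by over 1.5 times and the lowest count came without the GD8.5 IIS pair. The cause of these changes was not tested. Cxcl2 and Cxcl3, whose difference was 0, were called under no alternative; Cxcl2 differed by -16.7 points with peaks of −log10 q of at least 2. Among the re-computed differences of the other members, 78 changed neither sign nor side of the threshold, 12 changed sign and 1 gained a call. The 78 include Cxcl5 and Cxcl11 without flanks, whose difference was then 0. The sign changes were Cxcl1 with strong q peaks (-17.5 points), Cxcl5 with 5 kb flanks (0.0649; -2.02 to 2.26 leaving out a pair), Cxcl15 in the start window (-9.65; -0.937 to 11.9 leaving out a pair, the lowest without the Pdgfra-Cre pair) and Cxcl13 with p of at most 0.05 (-1.81), at equal covered length (-1.81), without flanks (-0.0484), with 5 kb flanks (-4.24), in the start window (-1.90), with 5 kb flanks at equal covered length (-7.62) and leaving out a pair (-0.263 to 1.09). Art3 kept its call at 14.4 to 15.1 points leaving out each pair, and lost it with p of at most 0.05 (5.94 points).

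At 25 points, 4 member differences passed in the 6 pairs and 2 in the B6CBAF1/J contrasts. At 50 points, 2 passed in the pairs at equal covered length, a loss of Cxcl13 at GD14.5 IIS and a gain of Cxcl15 at GD14.5 IS. With p of at most 0.05, 2 passed in the pairs, a gain of Cxcl11 and a loss of Cxcl13, both at GD14.5 IIS. In the B6CBAF1/J contrasts 3 passed with p of at most 0.05, where Cxcl13 had 100% in each of the other lists and 0% at GD0.5. The GD0.5 peak over the whole gene had a −log10 p of 1.24, just short of that limit, and with all deposited peaks coverage there was 100%. The peak on Cxcl11 in the control list of GD14.5 IIS, with a −log10 p of 1.26, also fell just short. At equal covered length, chosen later for the stretches, the cKO minus control share was 11.0 points for the interferon cluster, 19.4 between Cxcl9 and Cxcl10 and 15.0 for Art3 beyond Cxcl11. Of the re-computed group medians 26 stayed within the spread and 10 moved, among them the interferon-induced group with p of at most 0.05, at 0 in cKO and 0 in control lists. Peak lists without read counts limit what can be said of the amount of mark.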
